A study of Mus musculus with 4 samples.

Results

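Periostin (Postn) and 9 other genes of matricellular proteins, Tnn, Tnc, Tnxb, Thbs1, Thbs2, Thbs4, Ccn1, Ccn2 and Sparc, were followed in single cells of mouse bone and marrow. They were taken by symbol from the feature lists of both libraries, 10 of 32285 genes, and all 10 were found in each. Per the labels, the cells were live CD45- cells of femur and tibia after magnetic depletion of blood lineages, from INK-ATTAC mice that received no treatment, and CD24 on the cell surface was read with an oligonucleotide-tagged antibody in the same cells (CITE-seq). There was 1 library of young and 1 of old mice, and the labels give no age in months. The study's methods give 6 and 24 months for its young and old mice, and for its single-cell RNA work an age range that begins at 24 months. INK-ATTAC mice of both ages carry a transgene in which the p16Ink4a promoter drives an inducible caspase 8. How many mice went into each library is not stated in the labels or methods, and an age difference has no replicate check. The sort sets which cells are present, and a level below describes cells that survived digestion and sorting. The antibody served in the study to place CD24 among the cell types of bone. Its CITE-seq comparison already listed Postn among late osteogenic genes that were higher in CD24+ than in CD24- cells. The slope of Postn on this antibody, given below, is therefore no independent result.

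Matricellular proteins are secreted into the matrix but serve less as its scaffold than as signals and organisers: they bind collagen and fibronectin, hold growth factors and engage integrins and other receptors of nearby cells. Postn takes its name from the periosteum, the sheet of cells on the outer face of bone, and helps BMP1 and lysyl oxidase to cross-link collagen. In the skeleton such proteins are known from periosteum, tendon insertions and healing fractures, where tissue is loaded or being rebuilt.

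The genes belong to several families. Tnn (tenascin-W), Tnc (tenascin-C) and Tnxb (tenascin-X) are tenascins, large glycoproteins made of chained modules. Thbs1 and Thbs2 are the trimeric thrombospondins, Thbs4 is a pentameric one, and Thbs1 is known for binding CD36 and CD47 and for activating latent TGF-beta. Ccn1 and Ccn2 are CCN proteins whose genes are used as readouts of the mechanosensitive YAP and TEAD factors. Sparc (osteonectin) is a small collagen- and calcium-binding protein that is abundant in bone, and Postn itself has fasciclin domains. In GRCm38.p6 (RefSeq) Postn spans chr3:54359267-54391041, Tnn chr1:160085029-160153692, Tnc chr4:63959785-64047015, Tnxb chr17:34660453-34719815, Thbs1 chr2:118111876-118127133, Thbs2 chr17:14665500-14694262, Thbs4 chr13:92751586-92794818, Ccn1 chr3:145646971-145649985, Ccn2 chr10:24595442-24598683 and Sparc chr11:55394159-55420080.

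Postn, Tnn and Thbs2 are the members that rose with CD24 inside osteoblast-like cells, and Tnc is the one that fell there in 3 bins. Of the CCN pair only Ccn1 is added, since the promoter set used had no entry for Ccn2. The 250 bases before the annotated starts of these 5 genes are shown (RefSeq, GRCm38.p6, gene strand, 5′ to 3′). Capitals mark matches to a TEAD motif (GGAATG, either strand) or a TATA box (TATAAA, gene strand). RUNX (TGTGGT) and AP-1 (TGANTCA) letters, both strands, were searched too and are in none of the 5. Of the windows searched but not shown, that of Thbs4 held 2 TEAD matches. That of Tnxb, 10082 bases from the gene start, held 1 AP-1 match.
Postn, chr3:54359017-54359266, plus strand: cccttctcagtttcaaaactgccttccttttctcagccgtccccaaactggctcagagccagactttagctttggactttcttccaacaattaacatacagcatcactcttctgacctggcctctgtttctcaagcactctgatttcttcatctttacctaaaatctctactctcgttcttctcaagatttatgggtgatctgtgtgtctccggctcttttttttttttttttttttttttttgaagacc
Tnn, chr1:160153576-160153825, minus strand: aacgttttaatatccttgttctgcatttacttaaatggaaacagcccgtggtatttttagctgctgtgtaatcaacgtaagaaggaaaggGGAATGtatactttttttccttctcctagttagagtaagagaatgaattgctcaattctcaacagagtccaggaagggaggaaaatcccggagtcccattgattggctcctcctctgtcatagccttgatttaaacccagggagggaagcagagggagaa
Thbs2, chr17:14694263-14694512, minus strand: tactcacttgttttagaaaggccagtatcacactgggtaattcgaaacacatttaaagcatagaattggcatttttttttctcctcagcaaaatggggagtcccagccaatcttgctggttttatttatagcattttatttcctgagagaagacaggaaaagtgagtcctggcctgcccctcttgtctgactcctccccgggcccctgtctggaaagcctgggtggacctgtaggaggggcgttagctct
Tnc, chr4:64047016-64047265, minus strand: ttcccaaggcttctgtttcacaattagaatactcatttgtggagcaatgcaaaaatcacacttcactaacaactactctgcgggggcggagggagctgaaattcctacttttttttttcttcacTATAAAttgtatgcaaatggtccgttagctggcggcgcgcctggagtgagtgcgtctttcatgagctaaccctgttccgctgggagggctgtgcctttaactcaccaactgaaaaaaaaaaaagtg
Ccn1, chr3:145649986-145650235, minus strand: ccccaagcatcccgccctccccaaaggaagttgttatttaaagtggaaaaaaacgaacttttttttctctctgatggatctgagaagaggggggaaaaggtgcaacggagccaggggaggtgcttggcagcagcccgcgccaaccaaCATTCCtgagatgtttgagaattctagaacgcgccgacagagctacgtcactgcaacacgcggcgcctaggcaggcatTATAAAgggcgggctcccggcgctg

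The Ccn1 window holds a TEAD match 103 bases before the start and a TATA box 25 bases before it. The Tnn window overlaps the annotated gene span by 117 bases and holds 1 TEAD match, and the Tnc window holds TATA letters 126 bases before the start. Among 32851 promoters of this length, 14.0% held the RUNX letters, 12.6% the TEAD letters, 6.75% the AP-1 letters and 7.59% the TATA letters. The windows of Postn and Thbs2 held none of the 4 motifs, which says only that these letters are absent from 250 bases.

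After barcodes with under 200 genes or over 20% mitochondrial UMIs were left out, 10063 young and 5607 old cells remained, with 81076421 and 66702846 UMIs (unique molecular identifiers, which count molecules). The median cell was deeper in the old library (9711 against 6385 UMIs). Each cell was put into a class by the UMIs of marker genes that include none of the 10, which gave 6 mesenchymal groups and 16.9% and 14.6% of cells in no class. The young and old libraries held 919 and 492 osteoblast-like, 618 and 310 tendon- or periosteum-like, 2533 and 1086 fibroblast-like, 2566 and 1549 marrow stromal-like, 269 and 89 chondrocyte-like, and 165 and 137 pericyte- or smooth muscle-like cells. Markers of its own kind were 2 to 5 of the top 10 genes of every group, and markers of another group were 0. The groups were set by these same markers, so this is no independent check. A separate clustering that left out the 10 genes placed 86.5% and 91.9% of osteoblast-like cells in clusters of that name, but only 61.2% and 64.8% of tendon-like and 38.2% and 47.4% of pericyte-like cells. The libraries shared 19 kept barcode sequences, and called doublets were 2.67% and 1.02% of the kept cells.

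Levels are given as CPM, the gene's UMIs per 1000000 UMIs of all cells of a group, first young, then old. Postn was highest in osteoblast-like cells, at 2789 and 1229 CPM, and in tendon-like cells, at 1932 and 1445. The 2 groups could not be put in order, since their values overlapped between libraries. Chondrocyte-like cells had 675 and 468 CPM and fibroblast-like cells 617 and 404, again overlapping. Pericyte-like cells had 69.8 and 234.5, of which 1 cell held 48.1% and 49.0% of the UMIs. Stromal-like cells were lowest, at 25.3 and 11.8 CPM. With each cell thinned to 2000 UMIs, 53.8% and 45.9% of osteoblast-like cells but 2.77% and 1.5% of stromal-like cells had a Postn UMI. In erythroid-like cells, which should lack the gene, this share was 2.40% and 2.68%. The stromal share is thus near that of erythroid-like cells, of which 30 lay in stromal-named clusters. Cluster c16, of whose cells 97.9% were erythroid-like, had 10.3 and 14.0 CPM of Postn. The stromal-like level was above this in the young and below it in the old library. Median depths before thinning were 11376 and 13413 UMIs in erythroid-like and 5250 and 8554 UMIs in stromal-like cells.

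**Figure D1:**
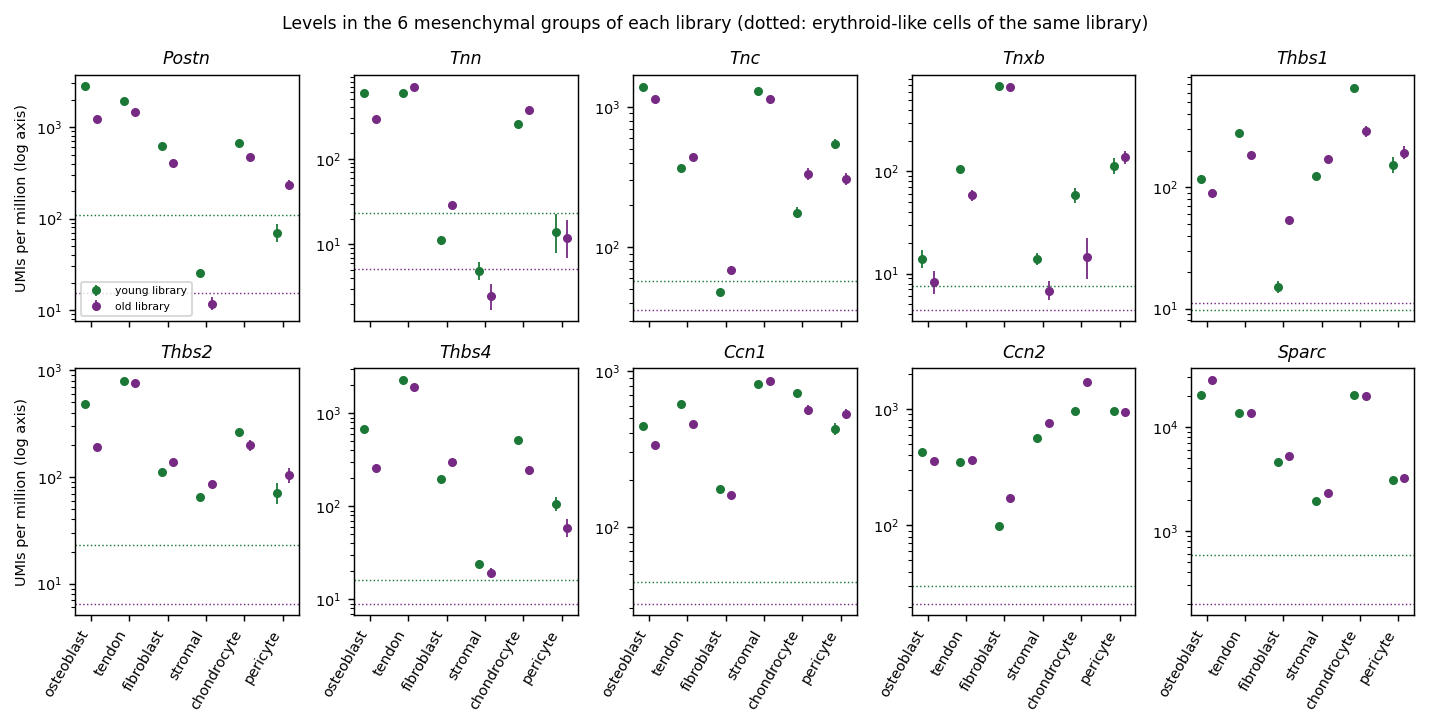
Level of each gene in CPM (log axis) in the 6 groups, young library in green and old in purple, with 95% exact Poisson intervals that cover counting error only; dotted lines give erythroid-like cells of the same library. Postn, Tnn, Thbs2 and Thbs4 peak in osteoblast- or tendon-like cells, Tnxb in fibroblast-like cells, Tnc in osteoblast- and stromal-like cells, and Sparc lies above its dotted lines in every group.

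The tenascins divided the groups between them. Tnn, a tenascin of bone-forming surfaces, followed Postn: 591 and 692 CPM in tendon-like cells, 591 and 293 in osteoblast-like, 253 and 372 in chondrocyte-like and at most 28.6 in each of the other 3 groups. Tnc had 1389 and 1131 CPM in osteoblast-like cells and, unlike Tnn and Postn, almost as much in stromal-like cells (1300 and 1132), with its lowest level in fibroblast-like cells (47.7 and 68.5). Tnxb, the tenascin of loose connective tissue, had the opposite arrangement. Its level was 678 and 665 CPM in fibroblast-like cells and 13.8 and 8.21 in osteoblast-like cells, where 1.51% and 0.632% of thinned cells had a UMI against 1.20% and 0% of 333 and 336 erythroid-like cells. Over the 12 combinations of group and library, Pearson's r between log2 levels was -0.89 for Tnc with Tnxb and 0.85 for Postn with Tnn. These points share libraries and are a description only.

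Among the thrombospondins, Thbs4 and Thbs2 peaked in tendon-like cells. Thbs4, known from tendon and muscle, had 2258 and 1930 CPM there, 681 and 257 in osteoblast-like cells and 24.1 and 19.3 in stromal-like cells. Thbs2 had 794 and 755 CPM in tendon-like, 481 and 193 in osteoblast-like and 65.4 and 85.5 in stromal-like cells, a flatter range. Thbs1 stood apart from both. Its highest mesenchymal level was in chondrocyte-like cells, at 651 and 288 CPM, its lowest in fibroblast-like cells, at 15.1 and 53.5, and mesenchymal groups held only 63.5% and 49.5% of its UMIs, against 88.5% and 89.7% of those of Postn. 

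The CCN pair and Sparc were broadly expressed. Ccn1 ranged from 832 and 865 CPM in stromal-like cells to 176 and 159 in fibroblast-like cells, and its 4 other groups lay between 337 and 719. Ccn2 had 962 and 1715 CPM in chondrocyte-like and 965 and 937 in pericyte-like cells, whose order differed between libraries, then 562 and 756 in stromal-like cells, and its lowest level in fibroblast-like cells (97.8 and 170). Sparc had 20167 and 28324 CPM in osteoblast-like, 20140 and 19876 in chondrocyte-like, 13617 and 13571 in tendon-like and 1949 and 2294 in stromal-like cells. After thinning, 86.6% to 99.5% of the cells of any mesenchymal group had a Sparc UMI, so Sparc marked none of them by presence.

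Whether these differences exceeded their own variation between the libraries was tested with edgeR's quasi-likelihood test over 13917 genes. Each group was set against the mean of the other 5, with the library in the model and the 2 libraries, of different age, as replicates. Adjusted p-values are Benjamini-Hochberg values over all genes, and a gene was called below 0.05. In osteoblast-like cells 6 of the 10 genes were higher (13.8% of all genes were) and 1 was lower (13.4%). The median of the 10 was 1.1 on the log2 scale against -0.0092 over all genes. Tnn was higher by 3.38 ± 0.29 log2 units (error as SE, with adjusted p 2.18e-05), Postn by 2.91 ± 0.31 (9.33e-05), Tnc by 2.09 ± 0.21 (6.87e-05) and Sparc by 2.07 ± 0.10 (4.64e-07). Thbs4 (1.19 ± 0.25) and Thbs2 (1.02 ± 0.24) were higher by less, and Tnxb was lower (-2.74 ± 0.34). For Thbs4, 13.5% and 8.13% of the cells, those outside osteoblast-named clusters, held 46.2% and 29.9% of the UMIs, and with cells of agreeing cluster only it was not called (0.93, adjusted p 0.0955). In tendon-like cells 5 of 10 were higher (background 10.6%) and 0 were lower (5.15%; at an unadjusted p under 0.05 it was 1, Ccn2, by edgeR, and 0 were called by DESeq2), led by Tnn (3.96 ± 0.28), Thbs4 (3.85 ± 0.22), Postn (2.63 ± 0.31) and Thbs2 (2.45 ± 0.21).

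The remaining groups were marked by other members. In fibroblast-like cells Tnxb alone of the 10 was higher, by 4.41 ± 0.21 (adjusted p 3.66e-07; 19.1% of all genes were higher), and 6 were lower (13.8%), with Tnc lowest at -3.29 ± 0.31. In stromal-like cells Tnc (1.74 ± 0.22) and Ccn1 (0.87 ± 0.12) were higher and 6 were lower, among them Postn at -5.46 ± 0.54, where 27.0% and 25.7% of all genes were called. In chondrocyte-like cells 6 were higher (13.4%) and 0 lower (9.76%; 1 at an unadjusted p under 0.05, Tnc, and 0 called by DESeq2), with Tnn at 2.85 ± 0.31, Thbs1 at 2.22 ± 0.36, Ccn2 at 1.85 ± 0.16 and Sparc at 1.82 ± 0.10. In pericyte-like cells 2 were higher (9.93%), Tnxb by 1.36 ± 0.28 and Ccn2 by 1.01 ± 0.17, and 5 lower (4.00%). The 6 comparisons share samples and are not independent.

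Most Postn UMIs of the tendon- and chondrocyte-like groups came from cells that clustered with osteoblast-like cells. Of the tendon-like cells, 18.3% and 16.5% (113 and 51 cells) lay in clusters named for osteoblasts, and these held 93.7% and 83.1% of the group's Postn UMIs, at 8659 and 6342 CPM. The 61.2% and 64.8% in the cluster named for tendon had 171 and 286 CPM. Tnn was divided in the same direction, at 2064 and 1951 against 267 and 460 CPM. Thbs4 was divided the other way, with 311 and 409 CPM in the osteoblast-named clusters and 3184 and 2305 CPM in the tendon-named one. In chondrocyte-like cells, 24 and 10 cells of the osteoblast-named clusters held 86.7% and 71.4% of the Postn UMIs, while those of the chondrocyte-named clusters had 26.9 and 1.93 CPM.

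**Figure D2:**
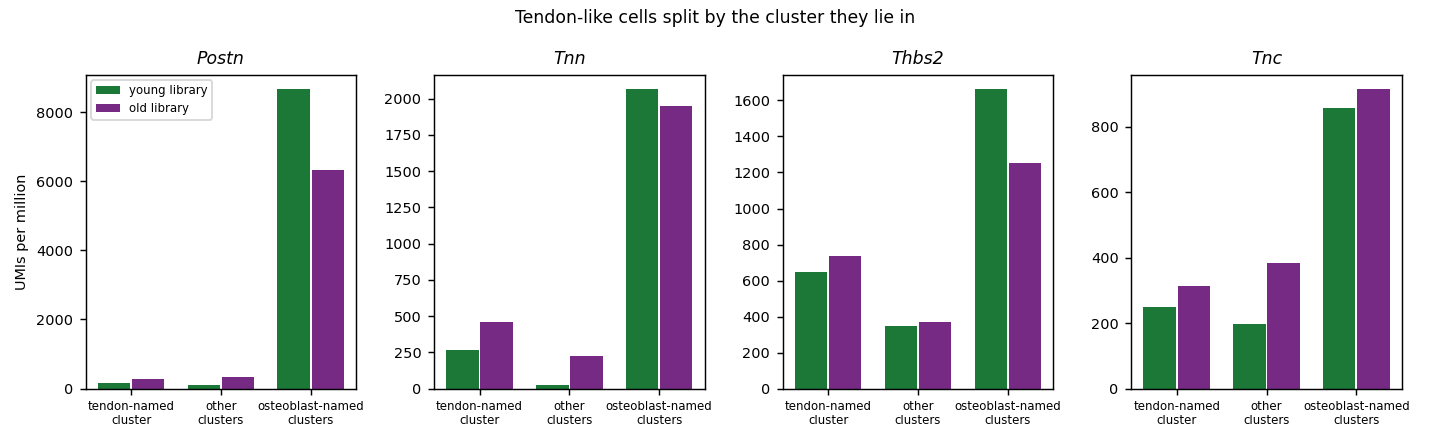
Level in CPM (bars from 0, 1 value per library, no error drawn) of 4 genes in tendon-like cells, divided by the cluster each cell lies in; green is young and purple old. Postn stands at 8659 and 6342 in osteoblast-named clusters and at 171 and 286 in the tendon-named cluster.

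Limiting each group to cells whose cluster carries the same name, a comparison added after seeing the data, changed several calls. Postn in tendon-like cells went from 2.63 to 0.96 (adjusted p 0.0886), and in chondrocyte-like cells from 0.89 (0.0979) to -3.70 (0.000455). In osteoblast-like cells it went from 2.91 to 4.67 (called), and in fibroblast-like cells from 0.56, which was not called, to 2.24 (0.000219). Ccn2 in pericyte-like cells turned from 1.01 to -1.42, both called, and Tnxb from 1.36 to -0.88 (0.366). Tnn in chondrocyte-like cells went from 2.85 to 0.85 (0.566). Thbs4 and Thbs2 in tendon-like cells were 4.73 and 2.94, and Tnxb in fibroblast-like cells was 5.05.

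The osteoblast-named clusters, made without the 10 genes, separated Postn, Tnn and Thbs2 from Tnc. Osteoblast-like cells were 63.1% of the cells of the first, c10, and 77.1% of those of the second, c11, and the levels are over all their cells. Cluster c10, with Wnt16, Ptn and Alpl among its leading genes, had 5483 and 3637 CPM of Postn, 1257 and 1128 of Tnn and 1001 and 696 of Thbs2. Cluster c11, led by Car3, Bglap, Dmp1 and Ifitm5, genes of mature osteoblasts and early osteocytes, had 486 and 463, 21.2 and 50.4, and 35.8 and 45.8 CPM of the same genes. Tnc ran the other way, at 952 and 1012 CPM in c10 and 2815 and 1281 in c11. Sparc was at 20536 and 19971 CPM in c10, and at 16080 and 31340 in c11, so its order differed between libraries. The levels of the 2 clusters did not overlap between libraries for Postn, Tnn and Thbs2, and for Tnc they did not overlap either, with 1012 against 1281 as the nearest values.

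**Figure D3:**
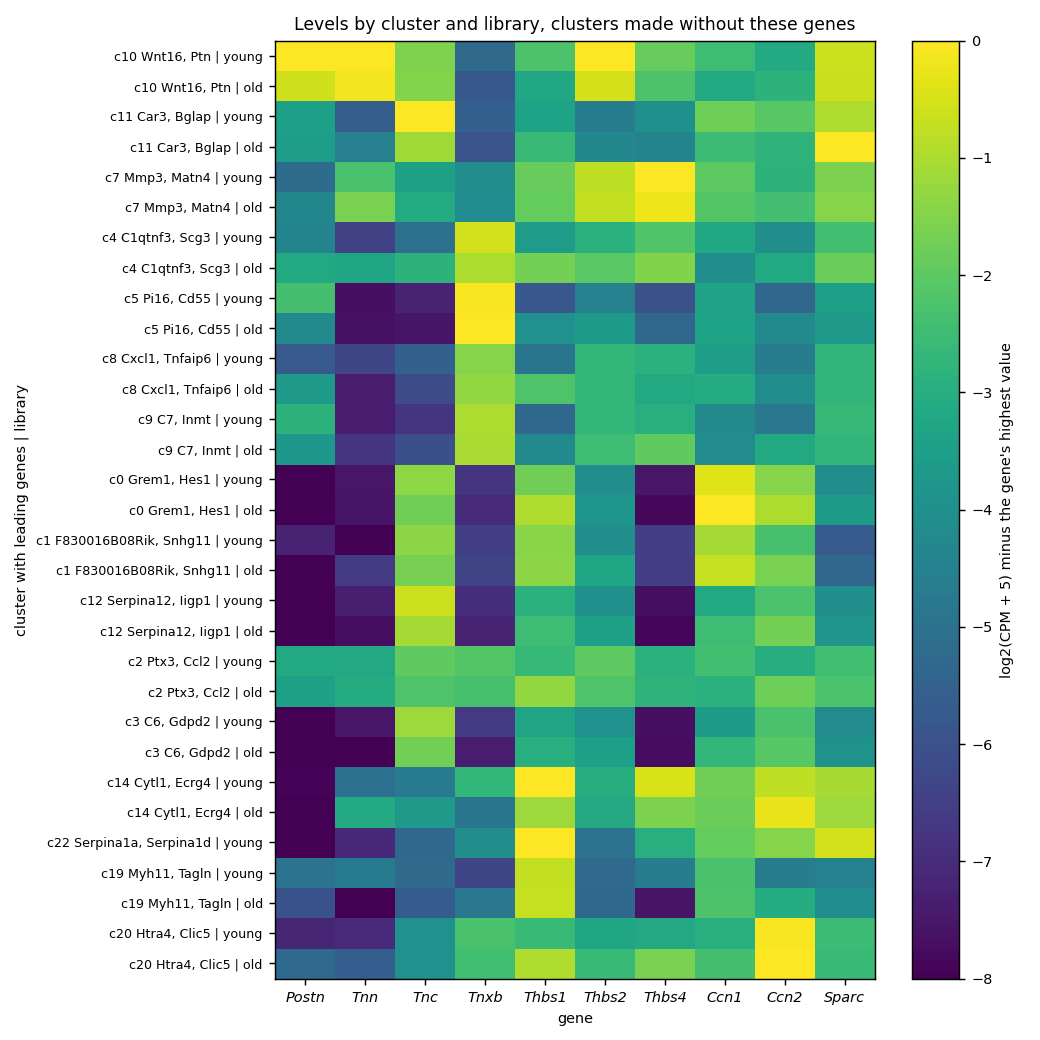
Level of each gene by cluster and library, as log2(CPM + 5) minus the gene's highest value (colour, 0 is the highest), for clusters named by their 2 leading genes outside the 10. Postn, Tnn and Thbs2 are brightest in the Wnt16 and Ptn cluster (c10), Tnxb in the Pi16 cluster (c5), Thbs4 in the Mmp3 and Matn4 cluster (c7), Ccn1 in the Grem1 cluster (c0) and Ccn2 in the Htra4 cluster (c20).

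Ordering osteoblast-like cells by the UMI share of Bglap, Bglap2 and Ifitm5, late osteoblast genes, gave 3 parts of equal size (also added after seeing the data, levels only). Postn peaked in the middle part, at 4120 against 2180 and 2088 CPM in the young and 1752 against 1216 and 863 CPM in the old library. Tnn and Thbs2 peaked there in both libraries as well. Tnc declined from the first to the third part, from 2475 to 711 and from 2173 to 448 CPM. By cluster, in contrast, Tnc was higher in c11, with Bglap and Ifitm5 among its leading genes, than in c10. Why the clusters and the parts differ for Tnc was not tested. Sparc climbed from 16779 to 23298 and from 17114 to 39018 CPM, alongside Bglap, which is part of the ordering.

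Other groups were divided too. The Grem1 and Hes1 stromal cluster (c0) had 1645 and 2162 CPM of Ccn1, against 167 and 325 in the C6 and Gdpd2 cluster (c3) and 240 and 380 in the Serpina12 cluster (c12). Ccn1 is itself known as an immediate-early gene. The summed level of 13 dissociation and immediate-early genes such as Fos and Atf3, all above 0, ranged from 7928 to 17890 CPM over the 6 groups, and its part in the Ccn1 values was not tested. Among fibroblast-like cells the Pi16 cluster (c5) had 980 and 1032 CPM of Tnxb and 1072 and 301 of Postn. The Cytl1 and Chad cartilage-like cluster (c14) had 1357 and 638 CPM of Thbs4 and 1272 and 1798 of Ccn2, with only 17.6 and 2.09 of Postn.

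Single cells showed the same pairing at equal depth. Of thinned osteoblast-like cells with a Postn UMI, 57.3% and 41.7% also had a Tnn UMI, against 19.8% and 13.2% of those without. In tendon-like cells these shares were 72.9% and 69.3% against 15.5% and 26.3%. Thbs2 was shared similarly in osteoblast-like cells (52.6% and 36.7% against 17.3% and 13.6%). Thbs4 went the other way, found in 41.3% and 54.5% of tendon-like cells with Postn and 76.5% and 69.9% of those without. In fibroblast-like cells Tnn was found with Postn in only 2.16% and 7.11% of cells, against 1.11% and 2.04% of cells without Postn and 1.80% and 0.595% of all erythroid-like cells, while Tnxb was found in 69.2% and 69.9% of cells with Postn and 65.3% and 63.8% of those without.

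Next, levels were followed along the CD24 antibody count. Mesenchymal cells of each library were put into 5 bins of equal size. Their median antibody counts ran from 36 to 274 in the young and from 44 to 257 in the old library. For scale, medians were 2824 and 4650 in erythroid-like and 2383 and 2106 in B-lineage-like cells. They were 78 and 90 in neutrophil-like and 65 and 51 in megakaryocyte-like cells, within the range of the lower bins. No threshold for CD24-positive cells was set. The slope of each gene on the log2 median count of the bins was tested with edgeR over 13677 genes. The bins of a library share its animals. Of the 10 genes, 5 rose (12.2% of all genes did) and 1 fell (10.7%), with a median slope of 0.25 against -0.0042 over all genes. Cd24a, the mRNA of the antigen, rose by 1.12 ± 0.11 per doubling of the antibody count.

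Postn rose from 259, 395, 455 and 691 to 1969 CPM over the young bins and stood at 308, 234, 330.5, 532 and 1095 CPM over the old bins. The rise was concentrated in the upper bins of both libraries, and its slope was 0.95 ± 0.07 log2 units per doubling (adjusted p 3.77e-06). Tnn went from 51.8 to 400 CPM and from 89.0 to 303 CPM, with a slope of 1.02 ± 0.11 (3.18e-05). Sparc (0.52 ± 0.05), Thbs2 (0.39 ± 0.06) and Tnc (0.30 ± 0.04) rose less steeply. Tnxb fell from 377 to 217 and from 278 to 175 CPM, with a slope of -0.26 ± 0.03 (6.59e-05). Thbs1 (0.20 ± 0.07, adjusted p 0.0578), Ccn2 (0.08 ± 0.04), Thbs4 (0.01 ± 0.06) and Ccn1 (-0.08 ± 0.04) were not called.

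The make-up of the bins moved with the antibody count. Osteoblast-like cells were 5.87% of the lowest and 26.6% of the highest young bin and 5.59% and 26.1% of the old ones, while fibroblast-like cells went from 44.7% to 22.8% and from 33.7% to 21.9%. Median depth went from 4892 to 8575 and from 9270 to 12274 UMIs. With bins made within each group and the group in the fit, the slope of Postn was 0.54 (adjusted p 0.000448), of Tnn 0.38 (0.000702), of Thbs2 0.16 (0.0207) and of Sparc 0.13 (0.00908), while Tnc (0.07) and Tnxb (0.08) were no longer called. With cells ordered by the antibody count over RNA UMIs, Sparc was at -0.04 (0.835) and no longer called, while Postn (0.66) and Tnn (0.62) stayed called.

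**Figure D4:**
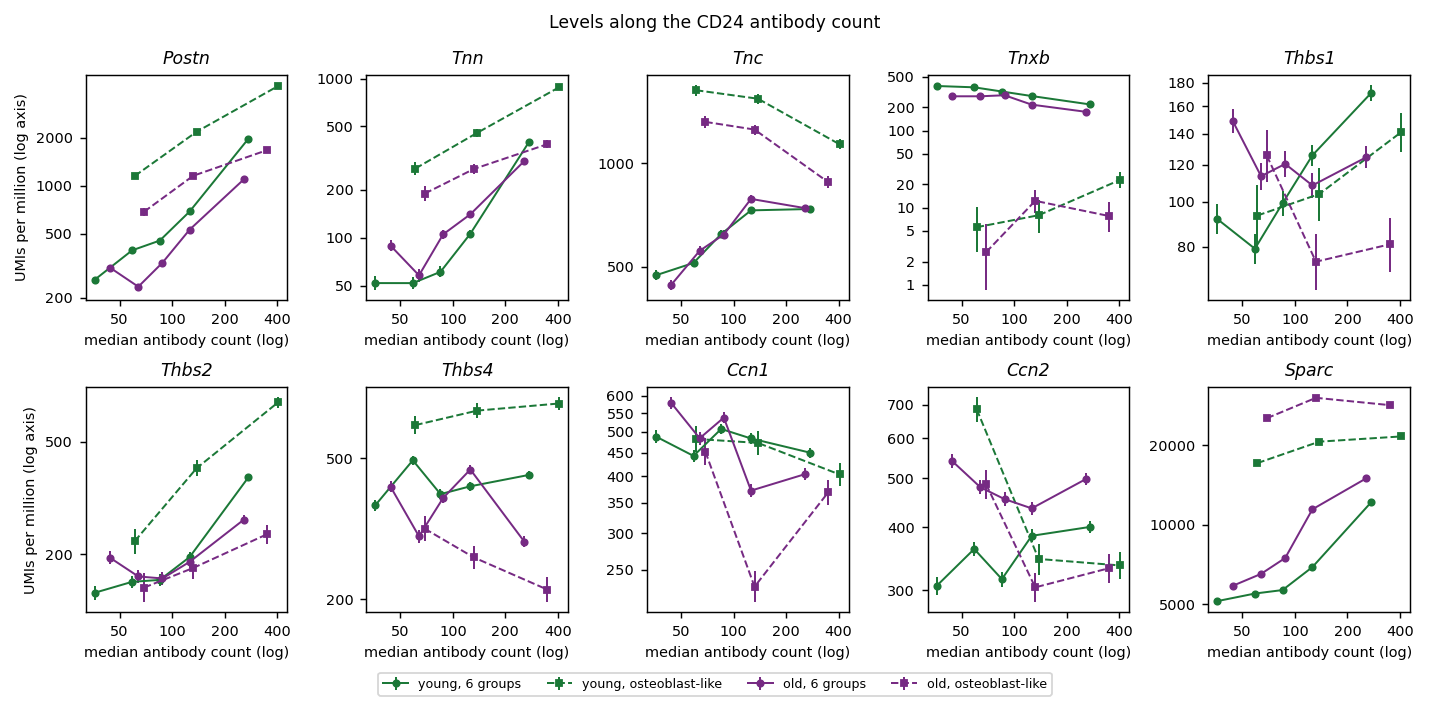
Level in CPM (log axis) against the median CD24 antibody count of each bin (log axis), for 5 bins of all mesenchymal cells (circles, solid) and 3 bins of osteoblast-like cells (squares, dashed), young in green and old in purple, with 95% exact Poisson intervals. Postn and Tnn are higher in the highest than in the lowest bin of both sets, and Tnc is higher there over all mesenchymal cells but lower within osteoblast-like cells.

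Within osteoblast-like cells alone, Postn, Tnn and Thbs2 rose with the antibody and Tnc fell. In 3 bins per library with median antibody counts of 61, 138 and 405 in the young and 69, 132 and 349 in the old, Postn had 1151, 2175 and 4204 CPM in the young and 688, 1155 and 1668 CPM in the old library. Each step went up in both, and the slope was 0.62 ± 0.05 (adjusted p 4.41e-05). Tnn went from 272 to 879 and from 189 to 387 CPM (0.55 ± 0.05, 7.09e-05). Thbs2 went from 222 to 690 and from 152 to 235 CPM (0.46 ± 0.06, 0.00249). Tnc went from 1630 to 1135 and from 1319 to 882 CPM, a slope of -0.22 ± 0.04 (0.018) against a slope of the other sign over all mesenchymal cells. The 3 rising genes compare with 0.882% of 10998 genes that rose, and the 1 falling gene with 0.609%. Ccn2 had 685, 346 and 336 CPM in the young and 487, 304 and 332 in the old library (-0.30 ± 0.07, adjusted p 0.0538), and Sparc had a slope of 0.09 ± 0.04 (0.394). Without a term for the library, edgeR called 0 of 10, although 6 passed an unadjusted p of 0.05. Median depth went from 4620 to 8836 and from 7863 to 14915 UMIs over these bins, and cluster c10 carried more antibody than c11 (medians of 151 and 157 against 105 and 119). With bins by the antibody count over RNA UMIs, Postn (0.42), Tnn (0.36) and Thbs2 (0.41) were called and Tnc was not (-0.02, adjusted p 0.902), while Sparc fell (-0.35, 0.0119). With each cell thinned to 2000 UMIs, Postn, Tnn, Thbs2 and Tnc were all called in the same direction, at 0.57, 0.57, 0.41 and -0.20. The part of the cluster mix in these slopes was not tested.

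Slopes were then fitted for each of the 6 groups in 1 model over 12085 genes, with 5 bins per group, a step added after seeing the data. In osteoblast-like cells Postn (0.62), Tnn (0.52) and Thbs2 (0.46) rose, 3 of 10 where 1.00% of all genes did, while Tnc was not called in these 5 bins (-0.21 ± 0.11, adjusted p 0.442). In tendon-like cells 5 rose where 2.13% of all genes did: Postn by 1.11 ± 0.16, Tnn by 0.66 ± 0.09, Tnc by 0.44 ± 0.11, Sparc by 0.29 ± 0.07 and Thbs2 by 0.25 ± 0.07. From the lowest to the highest bin of tendon-like cells Postn went from 390 to 5183 CPM in the young and from 688 to 4108 CPM in the old library. As given above, 113 and 51 cells of osteoblast-named clusters held most of the Postn UMIs of this group, and their part in its slopes was not tested. In fibroblast-like cells Tnn (0.77 ± 0.19) was the 1 member that rose, where 0.637% of genes did, from 8.33 to 17.9 CPM in the young and from 8.16 to 47.9 CPM in the old library. Both young values lie below the 23.5 CPM of erythroid-like cells and above the 6.05 CPM (4.08 to 8.64) of the erythroid-named cluster c16. Cells of fibroblast-named clusters gave 40.9% of the young and 73.4% of the old fibroblast-like Tnn UMIs. In stromal-, chondrocyte- and pericyte-like cells 0 of 10 were called, with 3, 3 and 5 at an unadjusted p under 0.05 in edgeR. The difference between the osteoblast-like and tendon-like slopes was called for Tnc, at -0.65 ± 0.16 (adjusted p 0.0214; 0.662% of genes were lower), and not for Postn (-0.50 ± 0.23, 0.448), Tnn (-0.13 ± 0.13, 0.821) or Thbs2 (0.21 ± 0.10, 0.474).

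The partners of these proteins were counted from lists of 8 matrix genes, 12 receptors and 13 family members that were tested. Of the matrix genes, 7 of 8 rose with the antibody over all mesenchymal cells, with a median slope of 0.22 against -0.0042 over all genes, including Col12a1 (0.66 ± 0.07), a collagen of periosteum and tendon, Col1a1 (0.58 ± 0.09), the main collagen of bone, and Lox and Bmp1 of collagen cross-linking and processing. Within osteoblast-like cells 3 of 8 rose, where 0.882% of all genes did (median slopes 0.15 and -0.0015), Col3a1 (0.48 ± 0.04), Col12a1 (0.40 ± 0.06) and Col5a1 (0.22 ± 0.04), while Col1a1 was at -0.05 ± 0.04 and not called. Of the 12 receptors, 3 rose and 4 fell over all mesenchymal cells (12.2% and 10.7% of all genes), with a median slope of -0.08, and within osteoblast-like cells edgeR called 0 of 11, also 0 at an unadjusted p under 0.05.

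Among relatives of the 10, Ccn6 (1.32 ± 0.20) and Ccn4 (0.76 ± 0.09), both of the CCN family, and Spp1 (osteopontin, 0.23 ± 0.06) rose over all mesenchymal cells, and 4 of 13 fell, with Sparcl1 lowest at -0.54 ± 0.05 (12.2% and 10.7% of all genes). Within osteoblast-like cells 1 of 12, Thbs3, rose (0.30 ± 0.05; 0.882% of all genes) and 1, Spp1, fell (-0.37 ± 0.08; 0.609%). Of 13 dissociation genes, 9 fell and 1, Hspa1a, rose along the antibody over all mesenchymal cells (10.7% and 12.2% of all genes; median slope -0.11), and within osteoblast-like cells only Dusp1 was called, rising.

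Between the ages there is 1 library each, so values are given with counting intervals and without a test. Over all mesenchymal cells Postn had 860 CPM in the young and 536 in the old library, a log2 difference of -0.68 (95% interval -0.71 to -0.66). Ccn2 was higher in the old library by 0.42 (0.39 to 0.45) and Sparc by 0.37 (0.36 to 0.37), and Tnxb was lower (-0.32, -0.35 to -0.28). None of the 10 differed by 2-fold on the log2(CPM + 5) scale, where 0.701% of 8983 genes did. With cells thinned to 2000 UMIs the Postn difference was -1.0 and that of Sparc 0.06, so the size of both differed by this choice.

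Within osteoblast-like cells 3 of 10 differed by more than 2-fold, all lower in the old library, where 1.65% of genes differed either way. Postn was lower by 1.18 (2789 against 1229 CPM, interval of the difference -1.22 to -1.15), Thbs4 by 1.40 (681 against 257) and Thbs2 by 1.32 (481 against 193), and Tnn, at 591 against 293 CPM, lay at the limit. Sparc was higher by 0.49. The mix of clusters in the group differed as well: c10 held 56.9% of young and 37.6% of old osteoblast-like cells, and c11 29.6% and 54.3%. Inside c10 Postn was lower by 0.59 and inside c11 by 0.07, Tnn by 0.16 in c10, and Thbs2 by 0.52 in c10. In c11, in contrast, Tnn (21.2 against 50.4 CPM) and Thbs2 (35.8 against 45.8 CPM) were higher in the old library. Thbs4 was lower in both clusters, at 525 against 406 CPM in c10 and 116 against 86.3 CPM in c11. Sparc differed by -0.04 in c10 and 0.96 in c11, and Tnc by 0.09 in c10 and -1.14 in c11. The group difference of Postn was larger than that within either cluster, but the sets of cells differ. The cluster values are over all cells of a cluster, of which 63.1% in c10 and 77.1% in c11 were osteoblast-like.

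**Figure D5:**
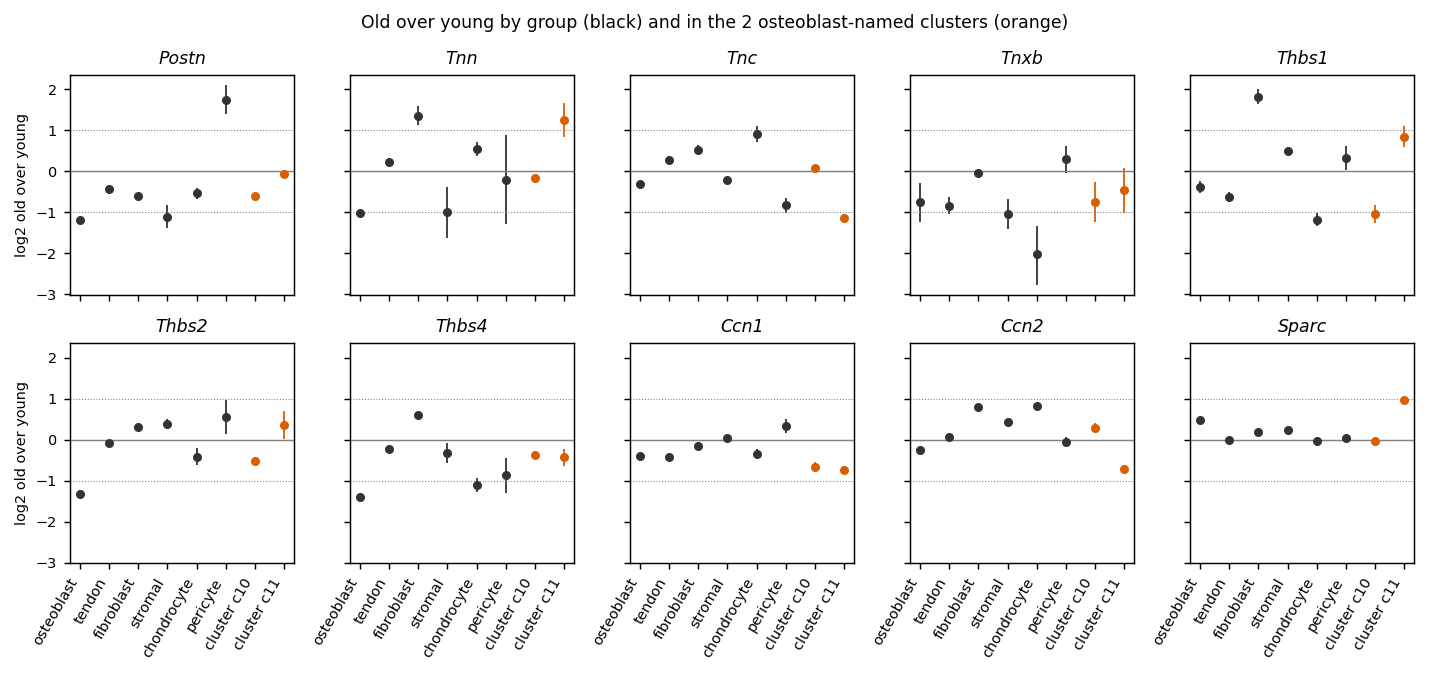
Log2 ratio of old over young level for each gene in the 6 groups (black) and over all cells of clusters c10 and c11 (orange). Error bars are 95% exact intervals for counting error, and dotted lines mark 2-fold. Postn is at -1.18 in osteoblast-like cells, -0.59 in c10 and -0.07 in c11, and 1.75 in the few pericyte-like cells.

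In fibroblast-like cells 2 of 10 differed by more than 2-fold, both higher in the old library where 0.657% of genes differed: Thbs1 (15.1 against 53.5 CPM) and Tnn (11.1 against 28.6 CPM). Tnn stood at 23.5 and 5.12 CPM in erythroid-like cells and at 6.05 and 4.24 CPM in the erythroid-named cluster c16. The young fibroblast-like level was below the first of these young values and above the second. In the cells of fibroblast-named clusters Tnn was at 4.95 and 22.3 CPM. Postn was lower in the old fibroblast-like cells by 0.61, but its clusters went both ways. It was lower in the Pi16 cluster c5 (1072 against 301 CPM) and in c9 (760 against 409 CPM), and higher in c4 (259 against 613 CPM) and c8 (94.9 against 426 CPM). In chondrocyte-like cells, with 89 old cells, 3 of 10 differed where 4.96% of genes did. Their clusters differed too: c14 held 45.0% and c22 32.7% of the young cells, and c14 held 71.9% and c10 7.87% of the old ones. In pericyte-like cells 1 of 10 differed, Postn, which was higher in the old library where 2.93% of genes differed either way. In the pericyte-named cluster it was lower in the old library (192 against 87.5 CPM), and 237 of the 312 old UMIs came from cells of clusters named neither for pericytes nor for osteoblasts. In tendon-like cells the differences ran from -0.83 for Tnxb to 0.28 for Tnc, with Postn at -0.42, Thbs4 at -0.23 and Thbs2 at -0.07.

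Finally, the genes with the pattern most like each member were ranked by Pearson's r of log2(CPM + 5) over the 12 combinations of group and library, among 9957 genes. Postn was nearest to Tmem119 (0.957), a membrane protein of the osteoblast lineage, then Zfp469 (0.949) and Rgs10 (0.946). Tnn was nearest to Col16a1 (0.984), Tnc to Myo10 (0.976), Thbs2 to Dkk3 (0.947), Thbs4 to Armh4 (0.970) and Sparc to Tmem42 (0.979). Tnxb was nearest to Cd34 (0.984) and Clec3b (0.980), which are markers that set the fibroblast-like group. Thbs1 (Lmcd1, 0.902), Ccn1 (Gmpr2, 0.915) and Ccn2 (Gt(ROSA)26Sor, 0.938) had the weakest nearest patterns. Points from 1 library share its depth, and likeness here says nothing of a common control.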

How the data were processed

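Raw UMI counts per gene and cell were used as the authors deposited them, made with Cell Ranger (6.1.1 per the file headers, an earlier release in the study's methods) against mm10, without normalization. The CD24 antibody count is a feature of the same matrices. The 10 genes and all lists were chosen with earlier results of these data known. All 10 were named. Other genes given with slopes came from fixed lists, apart from Cd24a. Leading genes of clusters and up to 3 nearest patterns per gene were named as well. Cells with under 200 genes or over 20% mitochondrial UMIs were left out, and doublets (Scrublet in scanpy 1.11.5) were kept in the main values. A cell joined the class with the highest mean z score of log(1 + counts per 10000) of its markers, at 0.5 or more and with at least 2 markers found. Clusters used Leiden at 0.8 on 3000 variable genes without the 10, 30 components and 15 neighbours.

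Counts were summed per library and group or antibody bin and tested with edgeR 4.0.16 in R 4.3.3 (TMM, filterByExpr, quasi-likelihood F test, two-sided, Benjamini-Hochberg, library as a term). There is 1 library per age. For groups, p-values measure how far the differences among groups varied between the 2 libraries, beyond a shift shared by all groups. The 2 libraries differ in age, and this variation may also be technical. For antibody slopes, p-values measure mainly the scatter of bins of these same libraries about a line. Alternatives were DESeq2 1.42.0, other filters, bins and groups, and thinning to 2000 UMIs. In tests on simulated data with 200 of the genes changed by 1 on the log2 scale, 78% were recovered for groups (13278 genes), 99.5% for bins of mesenchymal cells (13522 genes) and 98.5% for bins of osteoblast-like cells (10777 genes). False calls were 6, 4 and 3 genes. For bins the change was 1 per doubling of the antibody count, larger than most slopes above, so recovery of smaller slopes was not measured. The simulated means held no difference between libraries, and none between groups or bins apart from the changed genes. For groups the change was put into osteoblast-like cells and only their comparison was scored, so recovery in the other groups was not measured. Python 3.11.15, NumPy 2.4.6 and SciPy 1.17.1 were used. Intervals are 95% exact and cover counting error only. Sequences are from RefSeq tables of GRCm38.p6.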

Additional observations from a re-analysis of the deposited data

Results flagged for a closer look

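The slope of Tnc on the CD24 antibody count was lower in osteoblast-like than in tendon-like cells by 0.65 on the log2 scale (-0.65 ± 0.16, adjusted p 0.0214 by edgeR's quasi-likelihood test of the difference, in a fit added after seeing the data).

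The old-over-young difference went opposite ways between groups in the following pairs, on the log2(CPM + 5) scale with 1 library per age, and the difference was not tested. Postn was at 1.68 in pericyte- or smooth muscle-like cells (81 and 312 UMIs) and at -1.18 in osteoblast-like cells. Among pericyte-like cells of the pericyte-named cluster the direction was the same as in osteoblast-like cells (192 CPM young against 87.5 CPM old), and 237 of the 312 old UMIs came from cells of other clusters, those named for osteoblasts not counted. Thbs1 was at 1.54 in fibroblast-like cells and at -1.16 in chondrocyte-like cells.

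Outside the 6 mesenchymal groups, Thbs1 stood at 1896 CPM in the young and 1464 CPM in the old neutrophil-like cells, above every mesenchymal group. Ccn2 stood at 2012 and 2143 CPM in cluster c20, led by Htra4, Clic5 and Prg4, a gene of joint lining, of whose cells 71.6% were in no class.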

How the results depend on the processing

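No paired analysis was possible because there is 1 library per age, and the comparisons across groups and bins already carry a term for the library. Of 60 group comparisons 40 were called, and 37 to 47 under every alternative run (DESeq2, no filter, no library term, 10% mitochondrial limit, no doublets, thinning, groups from clusters, agreeing cells). Along the antibody over mesenchymal cells 6 of 10 were called, and 4 to 7 under the alternatives. Within osteoblast-like cells 4 were called, 7 without the filter on low counts and 0 without a library term (4 to 6 otherwise, with thinned Tnxb filtered out). Old against young, 0 of 10 passed 2-fold over all mesenchymal cells, 3 within osteoblast-like, 2 within fibroblast-like, 3 within chondrocyte-like and 1 within pericyte-like cells. Leaving out a library leaves values with no test.

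Directions turned as follows, and the cause was not tested. With groups from clusters: in chondrocyte-like cells Postn -4.75, Thbs2 -0.37 and Tnxb 0.79, in pericyte-like cells Ccn2 -1.44, Tnc -2.66 and Tnxb -1.49, and in fibroblast-like cells Thbs2 0.060. In agreeing cells: Postn -3.70, Thbs2 -0.62 and Tnxb 0.30, then Ccn2 -1.42, Tnc -2.15 and Tnxb -0.88. Pericyte-like Tnc, at 0.0091, was -0.00034 without the filter, -0.0045 without a library term and -0.0086 at the 10% limit. Thinned: Thbs4 in fibroblast-like cells -0.083, Ccn2 in osteoblast-like cells 0.11, Tnc in tendon-like cells -0.13 and the mesenchymal slope of Thbs4 -0.020. With bins by antibody over RNA UMIs: mesenchymal Ccn1 0.053, Sparc -0.038 and Thbs4 -0.098, osteoblast-like Ccn2 0.011, Sparc -0.35 (adjusted p 0.0119) and Thbs4 0.16. With the highest against the lowest bin: mesenchymal Thbs4 -0.035 and osteoblast-like Thbs1 -0.017. With bins within groups: Ccn2 -0.017, Thbs4 -0.14 and Tnxb 0.084. Without a library term osteoblast-like Thbs4 was 0.0086. Stromal-like Postn, osteoblast-like Tnxb and young fibroblast-like Tnn lie near or under their erythroid-like levels. In the erythroid-named cluster c16, Postn was at 10.3 and 14.0, Tnxb at 6.86 and 4.40 and Tnn at 6.05 and 4.24 CPM.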

Other observations

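Schwann-like cells, which entered no comparison, had 1057 and 1275 CPM of Tnc, near the levels of osteoblast- and stromal-like cells. A Tnc UMI was found in 69.8% and 61.7% of the 43 and 47 cells deep enough to be thinned. Their Postn level was 219 and 413 CPM and their Ccn2 level 542 and 812 CPM. No cluster was named for Schwann cells. Of the 44 young and 47 old Schwann-like cells, 57 lay in stromal-named clusters, and stromal-like cells had 1300 and 1132 CPM of Tnc. Whether the Schwann-like cells are Schwann cells was not tested. Megakaryocyte-like cells had 158 and 184 CPM of Thbs1, a protein stored in platelets, with a UMI in 21.7% and 25.4% of thinned cells against 0.601% and 2.08% of erythroid-like cells.

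Erythroid-like cells of the young library had 109 CPM of Postn against 15.4 CPM in the old library, and 1 cell held 33.1% of those young UMIs. Sparc, the most broadly found of the 10, had a UMI in 16.2% and 14.6% of thinned erythroid-like cells.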
